A study of Mus musculus with 2 samples.

Results

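The genes described here are 7 genes known from itch neurons, the sensory neurons that carry itch from the skin. They are the neuropeptide genes Sst, Nppb and Nts, the cytokine receptor genes Il31ra and Osmr, and the receptor genes Cysltr2 and Hrh1. They were chosen by name, with earlier results of these data known, as 7 of the 39098 genes in the count tables of both libraries. The 7 genes were followed across the neurons of the trigeminal ganglion (TG), which holds the cell bodies of the sensory neurons of the face. A neuron was taken as a cell with at least 5000 unique molecular identifiers (UMIs, 1 for each captured RNA molecule) and at least 10 UMIs in sum of Tubb3, Snap25 and Stmn2, 3 genes used by all neurons. By this rule 807 of 7298 control cells and 417 of 4080 CFA cells were neurons.

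The study compared TGs of male C57BL/6 mice of 5 to 8 weeks with and without orofacial inflammation. In the CFA group, 20 μL of complete Freund's adjuvant (CFA), mixed with an equal volume of sterile saline, had been injected into the right vibrissal pad, the whisker-bearing skin of the snout. The right TG was taken 7 days later, dissociated with papain and profiled on the BD Rhapsody single-cell platform. The control is labelled as untreated, while the study's methods describe an injection of saline. The study's methods give the number of mice in each group, but not how many went into a library.

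Each condition was 1 library. The difference between conditions therefore has no replicate check and no test was made. Levels are given as CPM (UMIs of a gene per 1000000 UMIs of the same cells). All intervals are at 95% and cover counting error only. The libraries held 48916096 UMIs (control) and 22096268 UMIs (CFA), and the median neuron had 44184 and 36628 UMIs. The libraries shared 27 cell barcodes, none of them neurons in both. Genes induced by interferon, such as Iigp1, were lower in the CFA neurons (6.95 CPM) than in the control neurons (49.9 CPM), and their part in the neuronal results was not tested. In the Nppb/Sst neurons described below, Iigp1 had 4 UMIs in the control and 0 UMIs in the CFA cells.

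As background, itch neurons are thin, slowly conducting fibres that fall into classes by the receptors they carry. In mice, a class of them makes the peptide Nppb, an itch transmitter released in the spinal cord or brainstem, together with somatostatin. The receptor for interleukin 31, a cytokine of T cells that causes itch in eczema, is a pair of Il31ra and Osmr. Osmr also pairs with Il6st to form the receptor for oncostatin M, and both pairs signal through Jak kinases and Stat factors. Cysltr2 binds cysteinyl leukotrienes and Hrh1 binds histamine, lipid and amine mediators that mast cells and other leukocytes release.

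The peptide genes are small and the receptor genes long. All positions are on mouse build GRCm38 in the GENCODE M21 annotation, where all 7 genes are protein coding. Sst, the somatostatin gene, lies on the minus strand at chr16:23889573-23890958 and Nppb, the gene of B-type natriuretic peptide, on the plus strand at chr4:147985788-147987205. Nts, the neurotensin gene, lies on the minus strand at chr10:102481756-102490486. Il31ra lies on the minus strand at chr13:112519898-112594360 and overlaps Gm3226, a processed pseudogene on the same strand, so reads in the overlap could belong to either. Osmr lies at chr15:6813577-6874969 and Cysltr2 at chr14:73025603-73049114, both on the minus strand, and Hrh1 on the plus strand at chr6:114397936-114483296.

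The 250 bases before the start of each gene were searched for short elements, since Sst, Nppb, Nts and Il31ra were found in the same few neurons (below). The windows are those of RefSeq on GRCm38.p6, all 7 members matched, and positions count back from the RefSeq start. Hrh1 had more than 1 RefSeq start and so more than 1 window. The cyclic AMP response element TGACGTCA, searched on both strands, stood in 1.55% of all 32851 windows and among the members only before Sst, at -48 to -41. Its first part, TGACG, stood in 17.8% of windows, before Sst, where it overlaps the whole element, and before Nts. The letters AGATAA, bound by GATA factors, stood in 9.99% of windows and before Nppb, Nts and Hrh1, for Hrh1 in only 1 of its windows. The Stat element TTCNNNGAA stood in 7.02% of windows and among the members only before Il31ra, as TTCCAGGAA at -191 to -183. The letters TGTGGT, bound by Runx factors, stood in 14.0% of windows and before none of the members. The stretches of 30 bases around 1 match in each of the 4 genes are shown 5′ to 3′ on the gene's strand, with the match in capitals.
Sst, chr16:23890874-23890903: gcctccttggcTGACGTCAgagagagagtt
Nppb, chr4:147985804-147985833: ctgataaatcagAGATAAccccacccctac
Nts, chr10:102490532-102490561: gggtgggggatgAGATAAgggacaaaggga
Il31ra, chr13:112580834-112580863: cctgaagggtTTCCAGGAAattgtgataat
No single element was shared by the 4 genes. GENCODE M21 places the start of Sst 114 bases and that of Nppb 112 bases further upstream, so that both stretches lie in an exon there, and it places the Il31ra stretch in an intron. A match of letters is a description of the sequence and not a measured binding site.

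Neurons with Nppb were few and stood clearly apart. Neurons with at least 10 UMIs of Nppb, called Nppb/Sst neurons here, were 12 of the control and 11 of the CFA neurons. The lowest Nppb counts inside this limit were 20 UMIs (control) and 24 UMIs (CFA). The highest outside it were 5, 5 and 3 UMIs in control neurons and 1 UMI in CFA neurons, so no neuron lay between 5 and 20 UMIs. A limit of 20 UMIs gave the same 12 and 11 neurons, and a limit of 5 UMIs gave 14 and 11.

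Nppb/Sst neurons made up 1.49% of control neurons and 2.64% of CFA neurons. The ratio of these shares was 1.77, with an exact interval of 0.709 to 4.39, so that no difference in their share could be shown at this number of cells. By UMIs they supplied 1.41% and 3.25% of all neuronal RNA. Fewer cells of a kind caught from the tissue and fewer cells present in it cannot be told apart here. The median Nppb/Sst neuron had 45697.5 UMIs in the control and 49245 UMIs in the CFA library, with 2.32% and 2.03% mitochondrial counts, and none had a doublet score over 0.25.

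Sst and Nppb marked nearly the same cells. Of the 12 control Nppb/Sst neurons all had at least 10 UMIs of Sst, and of the 11 CFA neurons 10 did. Sst itself reached 10 UMIs in 15 control and 11 CFA neurons, 3 and 1 of which lacked the Nppb that the limit requires. In the remaining CFA neuron, Nppb was at 24 UMIs and Sst at 0, while Nts stood at 105 UMIs, the highest of all 23 Nppb/Sst neurons. Its Il31ra (3 UMIs), Osmr (12 UMIs) and Cysltr2 (6 UMIs) were the lowest of the 23.

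**Figure D1:**
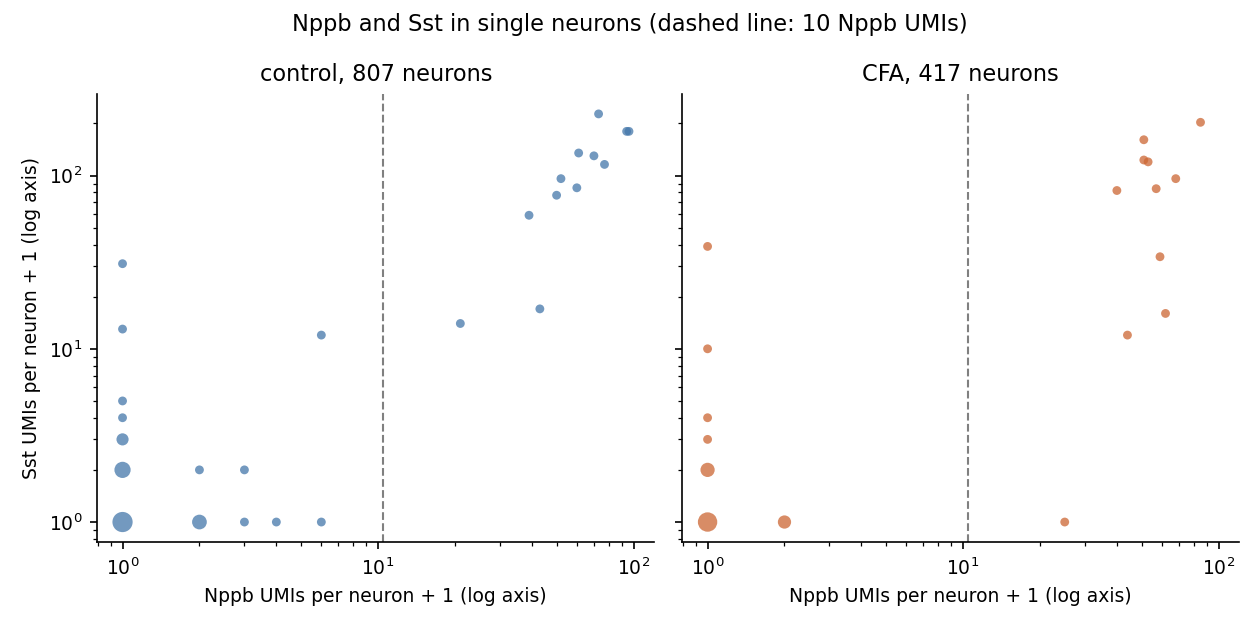
UMIs of Nppb (x axis) and Sst (y axis) in single neurons of the control and the CFA library, each plus 1 on log axes; larger points stand for more neurons with the same pair of counts. The dashed line is the limit of 10 Nppb UMIs, and the 12 control and 11 CFA neurons right of it lie apart from all others in Nppb, though not in Sst.

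The members were found together in these cells. Nppb, which chose the cells, is 1 of the members counted, so every Nppb/Sst neuron carried it by the rule. With at least 3 UMIs as the mark, 9 of the 12 control Nppb/Sst neurons carried 6 members and 3 carried all 7. In the CFA library 7 of 11 carried 6 members, 3 carried all 7 and 1 carried 5. Among the other neurons none carried more than 3, and 673 of 795 control neurons and 361 of 406 CFA neurons carried none. Osmr and Cysltr2 were found in all 23 Nppb/Sst neurons with at least 6 UMIs, and Il31ra in all 23 with at least 3 UMIs.

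Detection depends on depth, so each neuron was also thinned to 5000 UMIs. Nppb, which chose the cells, and Osmr were then still found in 12 of 12 control and 11 of 11 CFA Nppb/Sst neurons. Sst was found in 12 and 9, Nts in 11 and 9, Il31ra in 11 and 10, and Cysltr2 in 11 and 9 of them. Hrh1, found in 11 control and 7 CFA Nppb/Sst neurons before thinning, was left in 2 of 12 and 0 of 11. A count of 0 in 11 cells has a Clopper-Pearson interval up to 28.5%, so that for Hrh1 a difference was not detectable at this depth.

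Outside these cells, a UMI of the peptide genes was rare. Unthinned, Nppb had a UMI in 2.77% of the other control neurons and 1.72% of the other CFA neurons, Nts in 3.14% and 0.739%, and Sst in 6.42% and 3.94%. At 5000 UMIs only 4 of 795 and 1 of 406 other neurons had a UMI of Nppb. Osmr was more widely found, in 30.9% and 22.9% of the other neurons before thinning. After it, Osmr was found in 63 of 795 (7.92%) and 33 of 406 (8.13%). Among cells outside the neuron rule, which had a median of 1226 UMIs, Nppb had a UMI in 12 of 9152 cells.

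The peptide genes and Il31ra were concentrated in the Nppb/Sst neurons, and the other receptors less so. Of all neuronal UMIs of Sst, the Nppb/Sst neurons held 92.2% in the control (interval 90.7 to 93.6) and 93.5% in the CFA library (91.8 to 94.96). For Il31ra they held 90.5% (86.7 to 93.5) and 93.4% (90.1 to 95.8), and for Nts 85.7% (82.3 to 88.6) and 99.2% (97.7 to 99.8). Without 1 other control neuron with 42 UMIs of Nts, the control share of Nts was 93.2% (90.6 to 95.3). Nppb, which chose the cells, stood at 95.5% and 98.8%. The share was 37.7% (35.1 to 40.3) and 61.7% (57.9 to 65.3) for Osmr, and 49.4% (45.4 to 53.3) and 77.3% (72.5 to 81.6) for Cysltr2. For Hrh1 it was lowest, at 13.4% (8.89 to 19.2) and 25.4% (15.8 to 37.1). Such shares also rise with the part of neuronal RNA that Nppb/Sst neurons supplied, 1.41% (control) and 3.25% (CFA), from 12 and 11 cells. The fold over other neurons was 42.3 (control) and 47.8 (CFA) for Osmr. It was 68.3 and 101 for Cysltr2, and 10.9 and 10.1 for Hrh1. A change in concentration between the libraries was not tested.

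**Figure D2:**
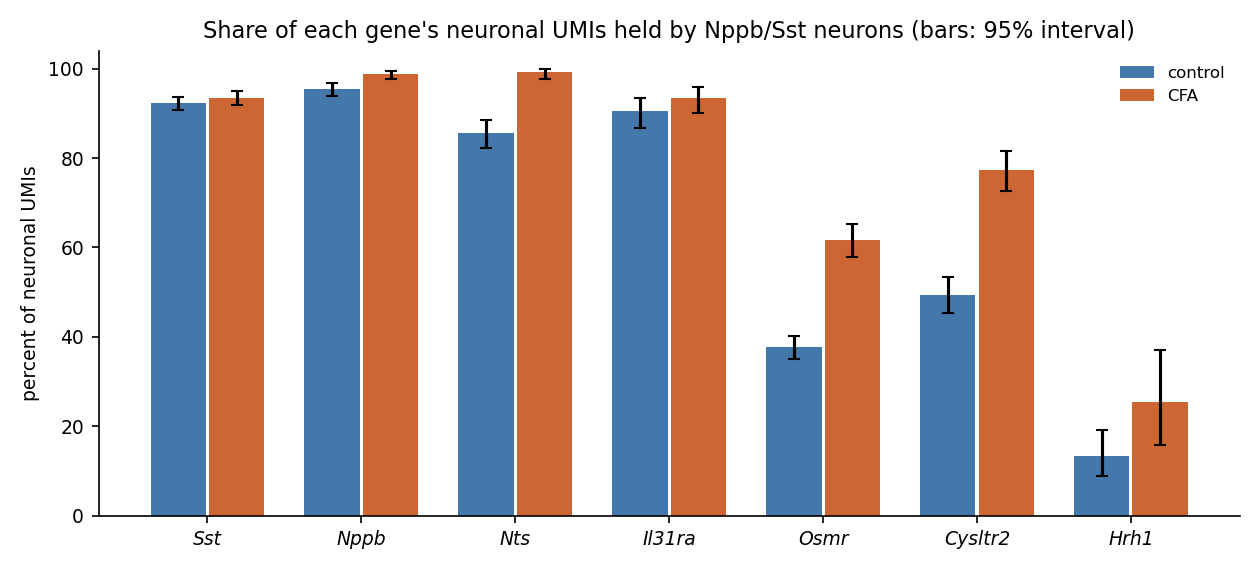
Percent of each gene's UMIs over all neurons that came from Nppb/Sst neurons (bars), in the control and the CFA library, with the 95% Clopper-Pearson interval for counting error. Sst, Nppb, Nts and Il31ra exceed 85% in both libraries, and Hrh1 is lowest at 13.4% and 25.4%. The bars also rise with the part of neuronal RNA from Nppb/Sst neurons, 1.41% (control) and 3.25% (CFA).

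All 7 members were at least 2-fold higher in Nppb/Sst neurons than in other neurons in both libraries. Of all 13937 genes with enough counts, 3.79% were, and Nppb was used to choose the cells. The members were chosen with earlier results of these data known, so this count is a description. The limit on counts took both groups of neurons together. Nppb and Nts passed it in the CFA library through the Nppb/Sst neurons, with 7 and 3 UMIs in the other neurons. The control fold was 830 for Sst, 418 for Nts and 665 for Il31ra, and the CFA fold was 428, 3736 and 418. Osmr was 42.3-fold and 47.8-fold higher, Cysltr2 68.3-fold and 101-fold, and Hrh1 10.9-fold and 10.1-fold. Without the 1 other control neuron that held 42 of 74 Nts UMIs, left out after the data were seen, the control fold of Nts was 966. The large CFA fold of Nts rests on 3 UMIs in the other neurons, with an interval of 10.31 to 14.15 on the log2 scale.

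Within the Nppb/Sst neurons, Sst spanned a wide range from cell to cell. In control cells it ran from 307 to 4865 CPM with a median of 2476 CPM, and in CFA cells from 0 to 3420 CPM with a median of 1778 CPM. Nppb ran from 473 to 2049 CPM with a median of 1340 CPM in control cells and from 578 to 1348 CPM with a median of 1178 CPM in CFA cells. The cells of the 2 libraries overlapped for both peptides, and the highest control cells lay above all CFA cells.

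Nts, which encodes neurotensin, ran from 0 to 1885 CPM with a median of 820 CPM in control cells. In CFA cells it ran from 122 to 2531 CPM with a median of 583 CPM. The control cell without Nts had the highest Osmr level of the 23 (1524 CPM) and 61663 UMIs in all. The CFA cell highest in Nts was the cell without Sst.

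In control cells Il31ra, Osmr and Cysltr2 had narrower relative ranges than Sst or Nppb. Il31ra ran from 280 to 701 CPM with a median of 540 CPM in control cells and from 72.3 to 997 CPM with a median of 481 CPM in CFA cells. Osmr, its partner, ran from 520 to 1524 CPM (median 930) and from 289 to 1111 CPM (median 738). Cysltr2 ran from 400 to 809 CPM (median 578) and from 145 to 647 CPM (median 486). Hrh1 was low throughout, with at most 5 UMIs in a cell, and ran from 0 to 108 CPM (median 43.2) and from 0 to 107 CPM (median 34.0). In each receptor the ranges of the libraries overlapped.

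**Figure D3:**
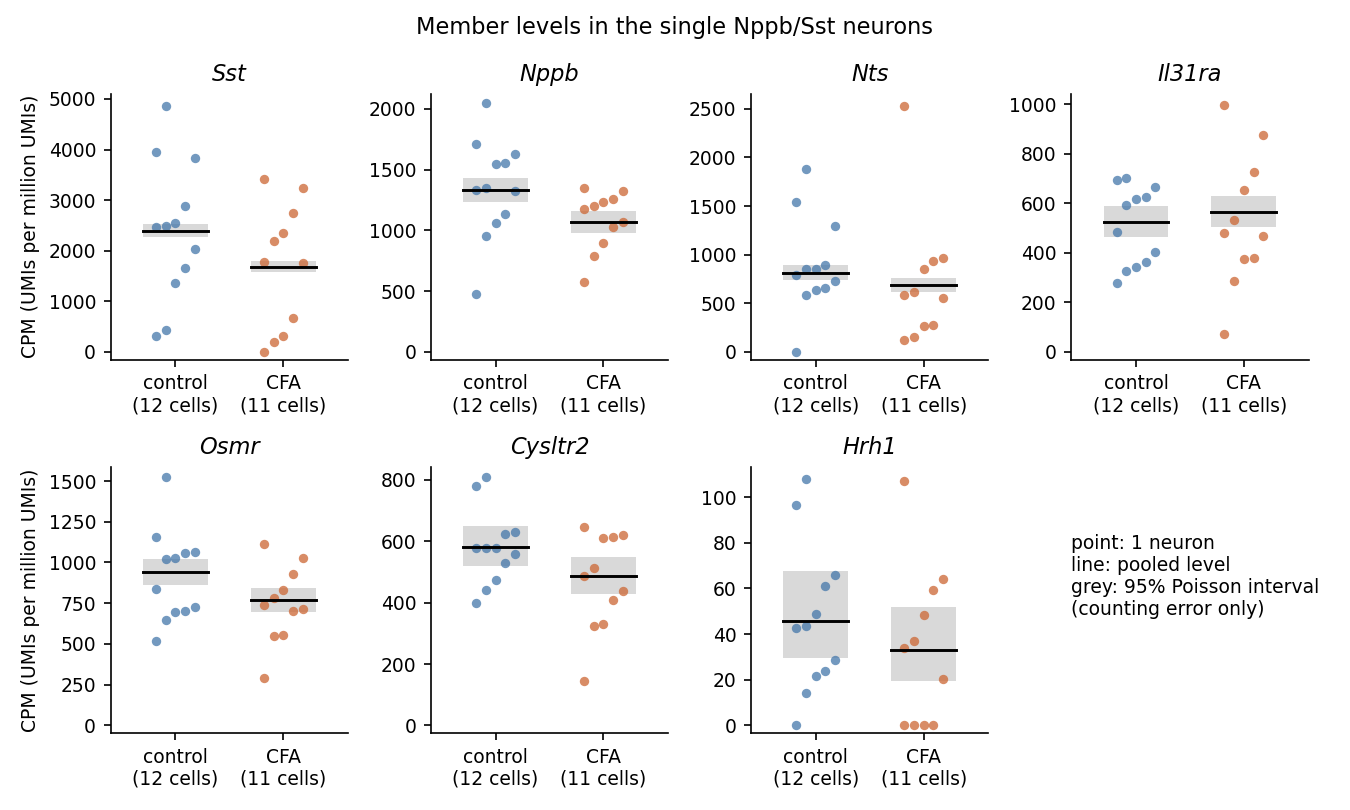
Level of each member in the single Nppb/Sst neurons of the control and the CFA library in CPM, with 1 point per neuron, a line for the pooled level and a grey band for its 95% Poisson interval. The points of the libraries overlap for all 7 genes, and Sst spans 307 to 4865 CPM in control cells.

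Across the 23 cells, Spearman's correlation of the CPM was highest for Sst with Nppb (rho = 0.76, at 0.85 in control and 0.45 in CFA cells). It was 0.54 for Il31ra with Cysltr2 (0.27 and 0.84), 0.36 for Il31ra with Osmr (0.03 and 0.76) and -0.28 for Nts with Il31ra. The points share 2 libraries and a common total in each cell, so these are descriptions, and the CFA values rest on 11 cells of which 1 was lowest in all of Il31ra, Osmr and Cysltr2.

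Over all neurons, 4 of the 7 members were at least 1.5-fold higher in the CFA library and none was 1.5-fold lower. With every neuron weighted equally rather than by its UMIs, 1 of the 7, Il31ra, was 1.5-fold higher. No share over all genes is given for equal weights. By summed counts, over all 17149 genes with enough counts, the shares were 7.41% higher and 7.03% lower. The median log2 ratio was then 0.68 for the members and -0.001 for all genes. Sst was at 36.6 CPM in control and 58.5 CPM in CFA neurons (log2 ratio 0.68, interval 0.56 to 0.80) and Nppb at 19.6 and 35.1 CPM (0.84, 0.68 to 1.00). Nts was at 13.3 and 22.6 CPM (0.76, 0.56 to 0.95) and Il31ra at 8.15 and 19.7 CPM (1.27, 1.04 to 1.498). With equal weights the log2 ratio was 0.32 for Sst, 0.47 for Nppb, 0.25 for Nts and 0.89 for Il31ra. In both libraries these 4 genes had over 85% of their neuronal UMIs in the Nppb/Sst neurons, more than the other members.

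Osmr was at 35.1 CPM in control and 40.5 CPM in CFA neurons (log2 ratio 0.21, interval 0.07 to 0.34), and Cysltr2 at 16.6 and 20.4 CPM (0.30, 0.11 to 0.49). Hrh1 was at 4.81 and 4.22 CPM (-0.19, -0.61 to 0.21), an interval that spans 0. With equal weights the log2 ratio of Osmr was 0.016 and that of Cysltr2 was -0.0095.

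The level over all neurons combines the level in Nppb/Sst neurons, the level in other neurons and the share of RNA from each. The share of neuronal RNA from Nppb/Sst neurons was then held at its control value. This calculation was added after the data were seen and follows from those levels. With it the log2 ratio was -0.41 for Sst, -0.35 for Nppb and -0.44 for Nts. It was then -0.40 for Osmr, -0.52 for Cysltr2 and 0.19 for Il31ra. This share of RNA, 1.41% (control) and 3.25% (CFA), rests on 12 and 11 cells and has no interval here. For the share of neurons, no difference between the libraries could be shown.

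Per Nppb/Sst neuron, none of the 7 members differed 1.5-fold between the libraries in the summed counts of all 23 cells. With each of the 23 cells left out in turn, an addition after the data were seen, 3 of the 7 (Sst, Nts and Hrh1) were 1.5-fold lower in the CFA library in at least 1 run. No share over all genes is given for this looser rule, so that count has no comparison. In the summed counts of all 23 cells, 11.1% of the 7123 genes with enough counts were at least 1.5-fold higher and 11.3% lower. There the median log2 ratio was -0.29 for the members and -0.009 for all genes. Sst was at 2396 CPM in control and 1681 CPM in CFA cells (log2 ratio -0.51, interval -0.63 to -0.39). With single cells left out, this ratio ran from -0.69 to -0.32. Nppb was at 1330 and 1066 CPM (-0.32, -0.48 to -0.16) and Nts at 812 and 688 CPM (-0.24, -0.44 to -0.04). Leaving out single cells moved Nts between -0.60 and -0.10, the lower value without the CFA cell that lacked Sst.

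Among the receptors, Il31ra was at 524 CPM in control and 564 CPM in CFA Nppb/Sst neurons (log2 ratio 0.11, interval -0.13 to 0.34), and with single cells left out it changed sign, from -0.09 to 0.21. Osmr was at 939 and 767 CPM (-0.29, -0.48 to -0.10) and Cysltr2 at 582 and 486 CPM (-0.26, -0.50 to -0.02). Hrh1 was at 45.9 and 32.9 CPM (-0.48, -1.44 to 0.45), from 25 and 18 UMIs, and with single cells left out it ran from -0.82 to -0.26.

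**Figure D4:**
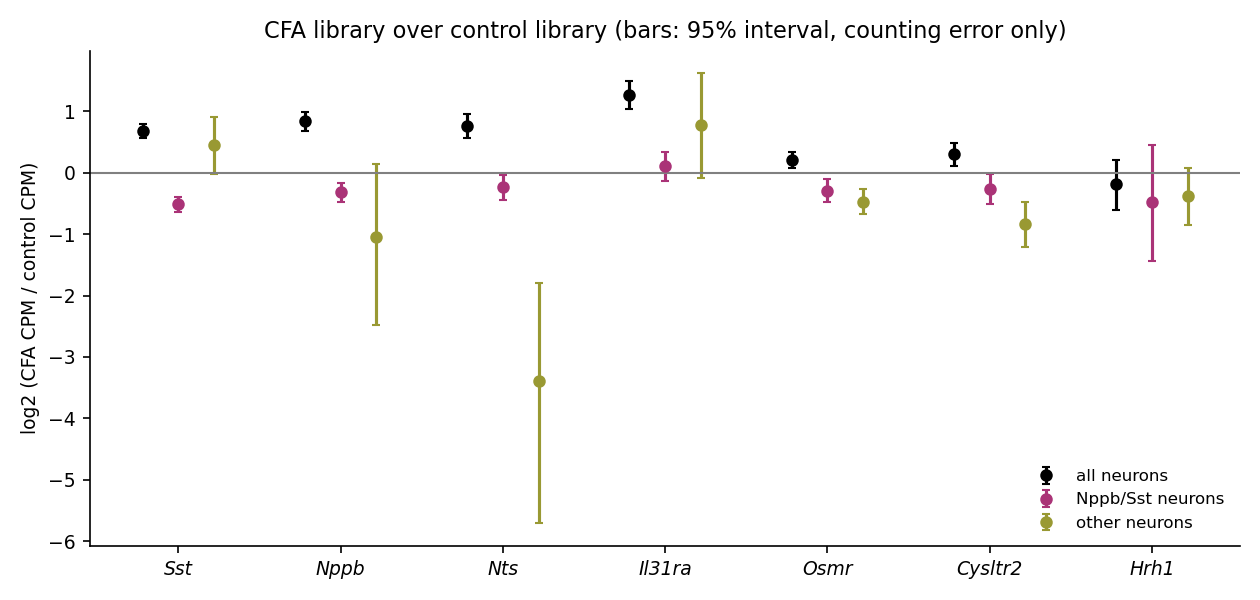
Log2 ratio of the CFA over the control library for each member in all neurons (black), in Nppb/Sst neurons (purple) and in the other neurons (olive), with 95% intervals for counting error. For Sst, Nppb and Nts the ratio is above 0 in all neurons and below 0 in Nppb/Sst neurons.

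In the other neurons, Osmr and Cysltr2, the members with a UMI in the largest shares of these cells, were lower in the CFA library. Osmr was at 22.2 CPM in control and 16.03 CPM in CFA neurons (log2 ratio -0.47, interval -0.68 to -0.27) and Cysltr2 at 8.53 and 4.79 CPM (-0.83, -1.21 to -0.47). Hrh1 was at 4.22 and 3.25 CPM (-0.38, -0.85 to 0.08), an interval that spans 0. Nts was at 1.94 and 0.184 CPM, from 74 and 3 UMIs, but 42 of the 74 came from 1 neuron, without which the control level was 0.840 CPM (-2.19, -4.54 to -0.51). Sst was at 2.89 and 3.93 CPM (0.45, -0.02 to 0.90), Nppb at 0.892 and 0.430 CPM and Il31ra at 0.787 and 1.35 CPM.

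The neurons of both libraries were clustered with the 7 members left out, which gave 19 clusters. All 23 Nppb/Sst neurons fell into 1 cluster, cluster 18, and no other neuron did. This held at resolutions of 0.5 and 2 and with the members allowed. The markers of that cluster include the members themselves, so its name, Nppb/Sst pruriceptor-like, adds nothing to them. Each list of markers of other neurons summed lower in it than in the other neurons in both libraries, though for cold neurons the control intervals overlapped. Peptidergic C markers were highest, at 981 CPM in control and 831 CPM in CFA cells, against 10106 and 9158 CPM in the other neurons. A sum can hide single markers that go the other way. Trpv1, of the peptidergic C list, was higher in the Nppb/Sst neurons. It stood at 489 against 269 CPM in the control and at 425 against 255 CPM in the CFA library. NP1 markers summed to 265 and 210 CPM, against 745 and 554 CPM. Those of large A fibres summed to 75.3 and 45.6 CPM, against 339 and 382 CPM. Those of NP2 neurons summed to 27.6 and 16.4 CPM, against 131 and 78.1 CPM. Markers of macrophages summed to 0 UMIs in control and 4 UMIs in CFA cells, and those of lymphocytes to 0 in both. Markers of satellite glia, the cells that wrap neurons, summed to 397 and 283 CPM in the Nppb/Sst neurons and to 404 and 377 CPM in the other neurons.

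Osmr was the member found most widely across clusters. After cluster 18 (852 CPM over both libraries) it was highest in cluster 12 (101 CPM) and in cluster 4, named NP1-like (85.9 CPM). Cluster 12 has Mrgpra3, a receptor for chloroquine in another class of itch neurons, among its leading genes. Cluster 4 had Mrgprd at 176 CPM and Trpv1 at 329 CPM. The NP1-like clusters 0 and 1 had Mrgprd at 499 and 594 CPM and Trpv1 at 24.0 and 21.2 CPM. In clusters 0 and 1 Osmr was at 3.59 and 2.76 CPM. It stood at 75.8 CPM in cluster 14, led by Mrgprb4, at 59.95 CPM in cluster 8 and at 41.6 CPM in cluster 11, both peptidergic C-like. The intervals of cluster 12 and cluster 4 overlapped, as did those of clusters 4 and 14. Between libraries, Osmr was lower in CFA cells of cluster 8 (28.6 against 78.6 CPM, log2 ratio -1.46, interval -2.13 to -0.84) and of cluster 5 (-0.73, -1.40 to -0.10), while intervals spanned 0 in clusters 4, 9, 11, 12 and 14. In cluster 17 it was higher in CFA cells (17.4 against 3.57 CPM, 2.29, 0.23 to 4.84), from 8 and 3 UMIs.

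Cysltr2 was highest after cluster 18 (534 CPM) in cluster 14 (43.2 CPM), NP2-like, followed by clusters 9 (17.6 CPM) and 11 (15.8 CPM), both peptidergic C-like. Its ratio between libraries had an interval that spanned 0 in each of clusters 0, 1, 9, 11 and 14. Cluster 14 held 3.35% of control and 1.92% of CFA neurons, and cluster 0 held 12.4% and 6.24%. The part of such shares in the lower Osmr and Cysltr2 of the other neurons was not tested.

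Hrh1 had another order. It was higher in cluster 12 (64.2 CPM, 127 UMIs), than in cluster 18 (39.4 CPM, 43 UMIs), followed by cluster 7 (12.7 CPM) and cluster 14 (9.52 CPM). In cluster 12 it was at 66.8 CPM in control and 55.1 CPM in CFA cells (log2 ratio -0.28, interval -0.98 to 0.37). Hrh1 had a UMI in 27 of 29 neurons of cluster 12.

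**Figure D5:**
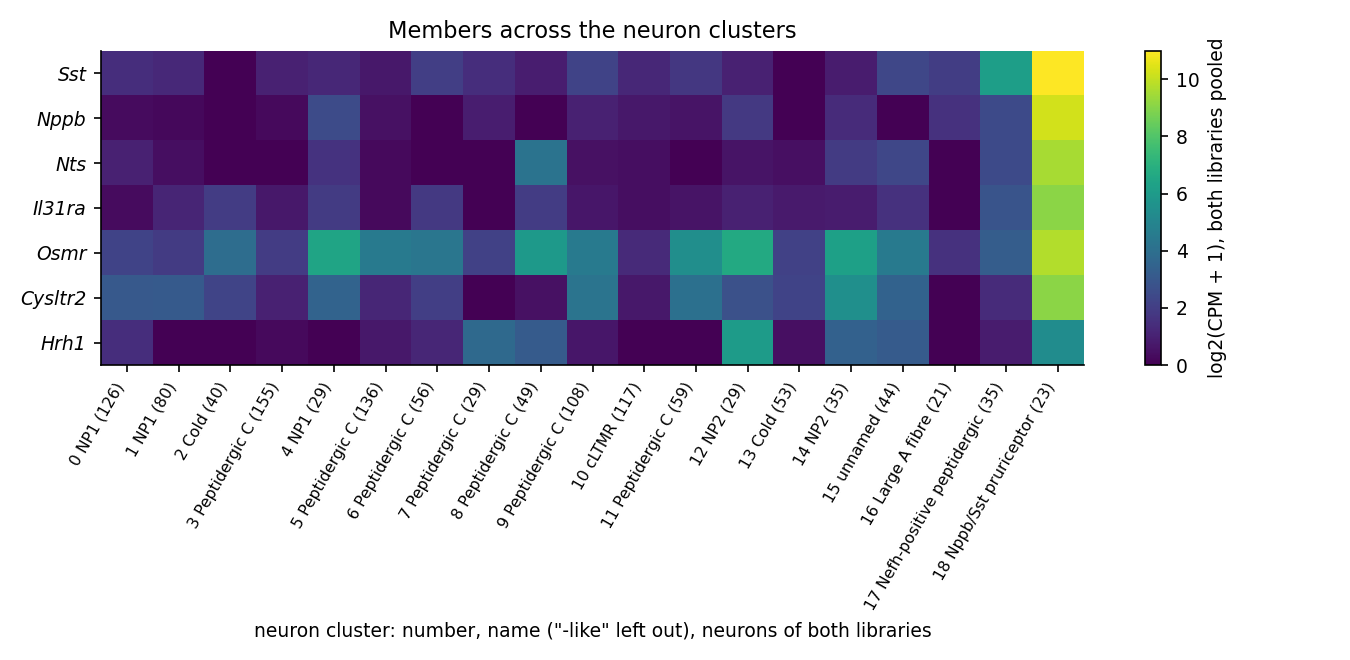
Level of each member in the 19 neuron clusters as log2(CPM + 1) over both libraries, with the number of neurons of each cluster in brackets. All members but Hrh1 are highest in cluster 18, Hrh1 is highest in cluster 12, and Osmr is found in most clusters.

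The peptides had few exceptions outside cluster 18. Cluster 17, Nefh-positive peptidergic-like, held 93 UMIs of Sst in 8 of its 35 neurons (71.6 CPM, at 51.2 CPM in control and 109 CPM in CFA cells), among them neurons with 38, 30, 11 and 9 UMIs. Of these only the neuron with 11 UMIs, a control neuron, had Nppb (5 UMIs), and it also had 6 UMIs of Nts. For Nts, 1 control neuron of cluster 8 held 42 UMIs (1387 CPM) with 13 UMIs of Osmr and none of Nppb, Sst or Il31ra.

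Outside the neurons, Osmr was again the member most found. In control and CFA cells together it stood at 112 CPM in mural-like cells, 98.3 CPM in endothelial-like cells, 58.1 CPM in fibroblast-like cells and 55.3 CPM in non-myelinating Schwann-like cells. It was at 1.53 CPM in macrophage-like cells, with 1 UMI, and at 0 in lymphocyte-like cells. Over all cells outside the neuron rule, Osmr was lower in the CFA library (12.3 against 28.3 CPM, log2 ratio -1.21, interval -1.63 to -0.80). This pool also holds the unnamed clusters 1 and 10, led by neuronal genes. Mural-like cells were 68 of its 5900 control and 23 of its 3252 CFA cells. The part of such shares in the pooled ratio was not tested. In endothelial-like cells Osmr was at 120 CPM in control and 59.6 CPM in CFA cells (-1.01, -1.88 to -0.21). In fibroblast-like cells it was at 65.3 and 43.5 CPM (-0.58, -1.44 to 0.21).

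Clusters led by interferon-induced genes were mostly of control cells. Clusters 7, 13 and 16 of the cells outside the neuron rule, named non-myelinating Schwann-like, satellite glia-like and myelinating Schwann-like, held 105, 202 and 159 control cells and 2, 15 and 4 CFA cells. Without these clusters, left out after the data were seen, Osmr was at 28.5 CPM in control and 12.4 CPM in CFA cells (log2 ratio -1.20, interval -1.63 to -0.79). The interferon-induced gene Gbp2 was also lower in CFA endothelial-like cells, at 252 against 482 CPM. Cysltr2 stood at 74.8 CPM in mural-like cells from 10 UMIs, and Hrh1 had 3 UMIs in all 9152 cells.

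Of the ligands of these receptors, Osm, which encodes oncostatin M, was found in leukocytes. In neutrophil or monocyte-like cells it was at 136 CPM in the control (interval 74.5 to 229) and 522 CPM in the CFA library (315 to 816). There Osm had 14 UMIs in 11 of 52 control cells and 19 UMIs in 7 of 26 CFA cells. In macrophage-like cells it was at 120 CPM (87.0 to 161) and 52.5 CPM (29.4 to 86.6), so that in the control the intervals of these cell types overlapped. Hdc, the enzyme that makes histamine, was at 2659 CPM in control and 2035 CPM in CFA neutrophil or monocyte-like cells, with a UMI in 66 of 78 cells over both libraries. In lymphocyte-like cells Hdc was at 203 CPM in the control and 499 CPM in the CFA library, with a UMI in 19 of 184 cells. Alox5ap, which acts in leukotriene synthesis, was over both libraries at 1510 CPM in neutrophil or monocyte-like cells, 542 CPM in lymphocyte-like cells and 438 CPM in macrophage-like cells. Ltc4s, the enzyme that makes leukotriene C, was in macrophage-like cells at 35.4 CPM in the control (18.8 to 60.5) and 102 CPM in the CFA library (68.0 to 146). Il31 had 0 UMIs in 9152 cells outside the neuron rule, with an interval up to 0.253 CPM, and 3 UMIs in neurons. Npr1, the receptor for natriuretic peptides, was at 83.2 CPM in endothelial-like cells and had 0 UMIs in the Nppb/Sst neurons.

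Further genes of the itch pathway were read from 7 lists, by their level in Nppb/Sst neurons over other neurons. Of 83 list genes with enough counts, 12 were at least 2-fold higher and 20 at least 2-fold lower in both libraries. Among all genes tested the shares were 3.79% and 7.71%. The limit on counts took both groups of neurons together. Some genes passed it only with the counts of the Nppb/Sst neurons added. Htr1f, Ptafr, F2rl1 and Hrh2 did so in the CFA library, with 8, 7, 12 and 9 UMIs in the other neurons. Piezo1, described below, did so there too, with 12 UMIs in the other neurons. Htr1f also did so in the control, with 19 UMIs in the other neurons. The lists were chosen with earlier results of these data known, so these counts are a description. Among receptors of itch agents 6 of 23 were higher and 5 lower. The higher ones were Htr1f (log2 ratio 8.24 in control and 8.80 in CFA), a serotonin receptor, Ptafr (7.62 and 8.43), the receptor for platelet activating factor, and S1pr1 (5.08 and 4.92), a receptor for sphingosine 1-phosphate. F2rl1 (4.84 and 5.22), a receptor cut open by proteases, Hrh2 (3.77 and 5.53), a histamine receptor, and Htr2a (2.40 and 2.35) were the others. The lower ones included Mrgprd (-6.44 and -5.03) and Lpar3 (-6.58 and -5.32), which mark NP1 neurons, and Mrgpra3 (-5.01 and -3.31), each with at most 2 UMIs per library in the Nppb/Sst neurons, and also Il4ra and Hrh3.

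In the list of cytokine receptor signalling 2 of 17 genes were higher and 1 was lower, beside 3.79% and 7.71% of all genes tested. The count of lower genes is near that share. Jak1, the kinase that both Osmr pairs use, was at 3744 CPM in Nppb/Sst neurons and 226 CPM in other neurons of the control library (log2 ratio 4.05), and at 4201 and 208 CPM in the CFA library (4.34). Socs2, a brake on cytokine signalling, was also higher (2.47 and 2.82), and Cntfr, a receptor for ciliary neurotrophic factor, was lower (-2.76 and -4.08). Il6st, the other partner of Osmr, differed less than 2-fold (0.41 and 0.62), as did Lifr (0.13 and 0.81) and Stat3 (0.24 and 0.50). Between libraries, Jak1 in the Nppb/Sst neurons had a log2 ratio of 0.17 (0.08 to 0.25).

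Of 23 channels and transmission genes, 3 were higher and 10 lower, beside 3.79% and 7.71% of all genes tested. Npy2r, a receptor for neuropeptide Y, was higher (log2 ratio 6.37 in control and 5.80 in CFA), as was P2rx2, a channel opened by ATP (4.59 and 5.20). Piezo1, a channel opened by pressure, was also higher (3.28 and 4.48). It had only 5 control and 9 CFA UMIs in the Nppb/Sst neurons, against 36 and 12 UMIs in the other neurons. The lower genes included the peptides Calca (-4.96 and -6.74), Tac1 (-4.45 and -5.11), Adcyap1 (-6.76 and -3.79), Calcb and Gal. The channels Trpa1 (-2.58 and -4.04), Piezo2 (-2.43 and -2.35) and Trpm8 and the glutamate transporters Slc17a6 (-2.15 and -1.27) and Slc17a8 were lower too. Trpv1, the capsaicin receptor, was at 489 CPM in Nppb/Sst neurons and 269 CPM in other neurons of the control library, less than 2-fold apart.

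Among 7 receptors of the member peptides, none was higher and 3 were lower, namely Sstr2, Ntsr2 and Sort1. Over all genes tested the shares were 3.79% higher and 7.71% lower. Sstr2, a receptor for somatostatin, had 0 and 1 UMIs in the Nppb/Sst neurons and stood at 20.6 and 36.3 CPM in the other neurons. Of 11 genes for peptide processing and storage, Scg2, a granin of secretory vesicles, was higher (2.02 and 1.65) and Scg5 lower (-1.10 and -1.68). For lower genes, 1 of 11 is near the share over all genes. Neither of 2 tested genes of the list of ligands and their synthesis was 2-fold apart in both libraries. Il6 among them had a log2 ratio of 0.68 (-0.06 to 1.33) in the control and 1.66 (0.81 to 2.40) in the CFA library. In the last list, neither leukotriene receptor, Cysltr1 or Gpr17, had enough counts.

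Ranked by the ratio of Nppb/Sst neurons over other neurons, taking the lower of both libraries, 5 members were among the 12 leading genes of 3321. The ranked genes were those with at least 30 counts in the Nppb/Sst neurons of each library. They were thus filtered through the cells where the members are high, and Nppb chose these cells. The ranking is a description. The order was Nppb, Gm525, Sst, Nts, Il31ra, Gm47595, Htr1f, Ptafr, Ptprk, Gm20139, Cysltr2 and Ildr2. Over 38 points, 1 for each cluster and library, the genes nearest to Sst were Nppb (r = 0.87), Il31ra (0.83) and Nts (0.78). Those nearest to Nppb were Ptafr (0.88), Htr1f (0.88) and Nts (0.87), those nearest to Nts were Ptafr (0.89), Nppb and Htr1f, and those nearest to Il31ra were Nppb (0.83), Sst and Ptafr. Genes compared here had at least 200 counts over all neurons. The neighbours named reached that limit through the Nppb/Sst neurons, so this order too is only a description. Ptafr, for example, had 31 control and 7 CFA UMIs in the other neurons.

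The other receptors had different neighbours. Nearest to Osmr were Grina (r = 0.73), Slc31a2 and Entpd5, nearest to Cysltr2 were Nt5e (0.79), Arhgap36 and Yod1, and nearest to Hrh1 were Capn9 (0.71), Deptor and Cfap61. The points share libraries and differ in depth, and for the peptides these correlations rest largely on the 2 points of cluster 18.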

How the data were processed

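Single cells of the right TG were profiled by BD Rhapsody, with 1 library per condition. The authors deposited whole-number UMI counts per gene and cell, not normalized. The submitters' processing notes name GRCm38 and fastp, and the aligner and counter are not given in the sources used here. The members and gene lists were chosen with earlier results of these data known.

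Neurons were chosen by the rule given in the report, with no mitochondrial limit, and doublets were scored with Scrublet and kept. Of the remaining cells, those with 150 or more genes and no more than 25% of counts from mitochondrial genes were kept. Both sets were clustered in Python 3.11.15 with scanpy 1.11.5 and igraph 0.11.9 (log-normalization to 10000, 2000 variable genes, 20 components, 15 neighbours, Leiden resolution 1, seed 0), without the members. Clusters were named "like" a type from marker lists when at least 3 markers reached 0.25 of their highest cluster and 0.1 of the cells. Clusters led by another type's markers, or shallow, stayed unnamed.

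Counts were summed per library with numpy 2.4.6, scipy 1.17.1 and pandas 2.3.3. CPM have exact Poisson, shares Clopper-Pearson and ratios conditional binomial intervals at 95%. A count of 0 was set to 3 counts, as a bound. Ratios between libraries were counted over genes with at least 20 counts in both libraries together, and ratios between neurons over genes with at least 20 counts in each library. The ratio, its interval, the 2-fold call and the interval of a share were tested on simulated counts without spread between cells. The neuron rule, clustering, naming, thinning and correlations were not tested in this way. Genes named are the 7 members, the list genes, the 12 leading genes with at least 30 counts in the Nppb/Sst neurons of each library, and the 3 genes nearest to each member among 11512 with at least 200 counts. Interferon-induced genes and cells with odd counts were named after their values were seen.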

Additional observations from a re-analysis of the deposited data

How the results depend on the processing

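No paired analysis was possible because each condition is 1 library and no test was made. Of the values recomputed under the alternatives, 308 stayed within the counting error or limit of the value reported, 23 moved further and 10 reversed. The number of Nppb/Sst neurons ran from 12 to 15 in the control and from 10 to 11 in the CFA library. The cause of the shifts below was not tested, except that smaller sets of cells or genes follow from the settings themselves. For the Nppb/Sst neurons the log2 ratio of CFA over control moved as follows. With at least 5 UMIs of Nppb it was -0.32 for Sst and -0.14 for Nppb. With at least 10 UMIs of Sst in place of Nppb it was -0.21 for Sst, -0.092 for Nppb, 0.41 for Il31ra, -0.062 for Osmr and -0.016 for Cysltr2. With at least 10 UMIs of both it was -0.60 for Nts, and Il31ra and Cysltr2 were found in 100% of CFA cells after thinning. Without the Nppb/Sst neuron of most UMIs in each library it was -0.30 for Sst. Over all neurons with every cell weighted equally it was 0.32 for Sst, 0.47 for Nppb, 0.25 for Nts, 0.89 for Il31ra, 0.016 for Osmr and, reversed, -0.0095 for Cysltr2. With the share of neuronal RNA from Nppb/Sst neurons held at that of the control, added after the data were seen, it was 0.19 for Il31ra. It reversed to -0.41 for Sst, -0.35 for Nppb, -0.44 for Nts, -0.40 for Osmr and -0.52 for Cysltr2. Without the Nppb/Sst neurons, added likewise, it was 0.45 for Sst and 0.78 for Il31ra and reversed to -1.05 for Nppb, -3.40 for Nts, -0.47 for Osmr and -0.83 for Cysltr2. Thinned to 2000 UMIs, Cysltr2 was found in 58.3% of control and 45.5% of CFA Nppb/Sst neurons. With at least 100 counts per library 5 of the 12 leading genes were shared, and at 4-fold 11 list genes were lower, against 20.

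With 12 and 11 cells and 1 library a condition, the spread between mice is not known and the ratio of the shares could lie anywhere between 0.709 and 4.39 by counting error. Hrh1, with 25 and 18 UMIs in these cells, is limited by depth.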
